A study of Homo sapiens with 6 samples.

Results

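Regions bound by RNA polymerase II at antisense RNA genes were taken from 4 lists of ChIP-seq regions in HepG2 cells, a human hepatoma line. A region was a member when the gene that the annotation of the lists assigned to it had a symbol ending in -AS and a number, the form given to long noncoding RNA genes read from the strand opposite a named gene. This rule took 5426 of 271336 regions, assigned to 590 of 16428 named genes. The members were 1099 of 46045 RPB1 regions in WT cells (2.39%, 95% Wilson interval 2.25 to 2.53%), 982 of 41605 RPB1 regions in SHP-1 KO cells (2.36%), 1944 of 102674 pSer2 regions in WT cells (1.89%) and 1401 of 81012 pSer2 regions in SHP-1 KO cells (1.73%).

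RPB1, the largest subunit of RNA polymerase II, and RPB1 phosphorylated at serine 2 of its carboxy-terminal repeats (pSer2) were immunoprecipitated from untreated HepG2 cells that kept SHP-1 (SHP-1-WT, the CRISPR control) or had lost it to CRISPR (SHP-1-KO, here KO). The knockout was made with guides against exons of the phosphatase domain of PTPN6, the gene of this tyrosine phosphatase, and cells were grown from single clones, so that a difference between genotypes and a difference between clones cannot be told apart. Each antibody and genotype had 1 library. The 1 input library per genotype entered only through the authors' calling of the regions and their fold enrichment. No difference between genotypes below therefore has a replicate check, no test between them was possible, and all intervals cover counting error only. The lists hold no read counts, so the depth behind a fold enrichment is unknown.

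An antisense RNA gene can start head to head with its sense gene at a shared promoter, lie inside it, or meet it tail to tail. RPB1 gathers at the starts of active genes, where the polymerase often pauses, and serine 2 is phosphorylated as the polymerase moves into the gene body, so that pSer2 is known as a mark of elongation. ChIP does not tell the strands apart, and polymerase on the antisense gene cannot be told from polymerase on the sense gene where they overlap.

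Hepatocyte markers checked the label of the cells. All 11 hepatocyte markers, such as ALB and APOB, had RPB1 regions in WT cells, whereas PTPRC, CD3E, COL1A1 and MYH7 had no region in any library. SNAP25 had 1 RPB1 region in each genotype, and PECAM1 had 11 to 22 regions in each library, at most 9.75-fold above input. APOA1 and APOA2 had no RPB1 region in KO cells but kept pSer2 regions. PTPN6 itself had a strongest RPB1 region of 24.0-fold in WT and 17.2-fold in KO cells, which does not check the knockout, since polymerase on the gene is no measure of the protein.

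The sense gene with the same root symbol was found for 586 of the 590 antisense genes (9 by an older symbol), in each case on the opposite strand, and 580 of these sense genes were protein coding. At 214 antisense genes the 5′ ends overlapped (median distance between starts 912 bp), 146 lay inside the sense gene, 120 overlapped its 3′ end, 58 were divergent without overlap (median 94.5 bp between starts), 44 contained the sense gene and 4 were convergent without overlap. The starts were within 1 kb of each other at 171 pairs (29.2%, 25.6 to 33.0%). Starts here are the outermost annotated starts of each gene. A pair classed as inside can therefore still lie at the start of another sense transcript, as at FOCAD-AS1 and TBC1D8-AS1 below. The pairs thus ranged from adjacent outermost starts to antisense genes far from the outermost start of a long sense gene.

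The 6 stretches printed here lie between the starts of divergent pairs whose WT RPB1 region contained both starts. Pairs were kept only if the stretch was within fixed limits of length and held no annotated coding or untranslated sequence. A KO RPB1 region was also required, and a chromosome was left out. Among the pairs kept, the 6 had the strongest such regions, with fold enrichments of 61.1 at SMC5-AS1, 61.0 at TPT1-AS1, 60.9 at PAXIP1-AS1, 50.9 at SLC2A1-AS1, 49.1 at TNKS2-AS1 and 47.9 at BOLA3-AS1. They were read from GRCh38/hg38 at chr9:70258867-70258977 (minus strand), chr13:45341285-45341344 (plus), chr7:155003125-155003420 (plus), chr1:42958894-42959048 (plus), chr10:91798310-91798425 (minus) and chr2:74147913-74148006 (plus), and each is written 5′ to 3′ along the antisense gene. Capitals mark matches, on either strand, to any of 4 short motifs. TATAAA is the core of the TATA box. The motif CCAAT is bound by the factor NF-Y. The GC box, searched as GGGCGG, is bound by SP1 family factors. The motif CCGGAAG is bound by ETS factors.
SMC5-AS1: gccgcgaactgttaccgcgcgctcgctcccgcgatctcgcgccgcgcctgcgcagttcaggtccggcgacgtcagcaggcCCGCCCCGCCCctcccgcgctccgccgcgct
TPT1-AS1: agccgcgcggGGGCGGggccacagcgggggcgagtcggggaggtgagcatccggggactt
PAXIP1-AS1: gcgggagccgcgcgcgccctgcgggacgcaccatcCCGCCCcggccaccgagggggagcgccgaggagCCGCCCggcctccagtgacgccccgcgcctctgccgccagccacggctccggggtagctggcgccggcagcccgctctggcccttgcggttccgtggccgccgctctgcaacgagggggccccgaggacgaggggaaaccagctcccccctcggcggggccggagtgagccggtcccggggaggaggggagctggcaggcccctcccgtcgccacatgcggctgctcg
SLC2A1-AS1: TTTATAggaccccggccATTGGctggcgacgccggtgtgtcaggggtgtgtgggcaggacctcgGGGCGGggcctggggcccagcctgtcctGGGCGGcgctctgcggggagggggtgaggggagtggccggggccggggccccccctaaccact
TNKS2-AS1: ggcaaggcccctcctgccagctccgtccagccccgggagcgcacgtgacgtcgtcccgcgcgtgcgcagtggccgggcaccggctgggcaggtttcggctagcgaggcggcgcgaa
BOLA3-AS1: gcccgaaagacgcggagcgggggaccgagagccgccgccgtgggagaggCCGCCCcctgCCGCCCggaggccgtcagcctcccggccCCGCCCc

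These 6 stretches were 60 to 296 bp long, a range bounded by the limits on length. Their GC content ran from 74.8% at SLC2A1-AS1 to 83.0% at BOLA3-AS1. GGGCGG matched in 5 of them, 3 times at BOLA3-AS1, and TNKS2-AS1 had no match to any of the 4 motifs. SLC2A1-AS1, divergent from the glucose transporter gene SLC2A1, alone among the 6 had a match to TATAAA, at its first base, and it also had a CCAAT match. A match describes the letters and shows no bound factor.

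An antisense gene can also start inside its sense gene, away from the outermost start of that gene. The promoters of FOCAD-AS1, in the gene of the adhesion protein focadhesin, and TBC1D8-AS1, in a gene of the TBC domain family, are shown. The choice was among antisense genes inside their sense gene, with the same chromosome left out and no coding or untranslated sequence in the RefSeq promoter. Of these, FOCAD-AS1 and TBC1D8-AS1 had the strongest WT RPB1 regions, at 80.9 and 41.8-fold (62.2 and 28.1-fold in KO cells). These regions also covered the start of the canonical sense transcript in both genotypes, while the outermost start of FOCAD lay 25103 bp and that of TBC1D8 101017 bp from the WT region, so they belonged to no antisense start alone. The sequences are the RefSeq promoters of 250 bases before to 50 after the start (GRCh38.p14), at chr9:20684701-20685000 on the minus strand and chr2:101151410-101151709 on the plus strand, with capitals as above.
FOCAD-AS1: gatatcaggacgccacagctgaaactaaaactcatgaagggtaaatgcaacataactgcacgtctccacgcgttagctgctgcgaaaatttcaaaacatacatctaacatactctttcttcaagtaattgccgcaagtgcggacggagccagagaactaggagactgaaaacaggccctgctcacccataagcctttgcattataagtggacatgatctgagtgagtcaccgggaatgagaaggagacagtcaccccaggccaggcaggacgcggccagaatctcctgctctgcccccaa
TBC1D8-AS1: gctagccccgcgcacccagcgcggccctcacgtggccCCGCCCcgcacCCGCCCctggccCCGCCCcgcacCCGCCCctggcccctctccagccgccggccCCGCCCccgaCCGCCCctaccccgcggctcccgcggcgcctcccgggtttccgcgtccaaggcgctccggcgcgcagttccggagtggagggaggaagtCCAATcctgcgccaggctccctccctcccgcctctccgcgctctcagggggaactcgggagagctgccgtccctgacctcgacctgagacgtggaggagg

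The promoter of FOCAD-AS1 had a GC content of 49.7% and no match to the 4 motifs. The promoter of TBC1D8-AS1 had a GC content of 78.0%, 37 CpG dinucleotides and 7 matches, 6 of them to GGGCGG on the opposite strand. RefSeq promoters were found for 463 of the 590 antisense genes. Of the 331 under a WT RPB1 region, 67.7% (62.5 to 72.5%) held GGGCGG, against 73.2% of all 11594 promoters under such a region, and 13.6% (10.3 to 17.7%) held CCGGAAG, against 20.6%. TATAAA was held by 4.83% of them and by 4.54% of all. The 132 antisense promoters without a WT RPB1 region had a median of 5 CpG dinucleotides, against 26 in those with 1, and all promoters differed in the same way, with medians of 4 and 27.

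About as many RPB1 regions at antisense genes lay near a start as near neither, whereas most pSer2 regions lay near neither. All regions had a like contrast between the antibodies. In WT cells the promoter class held 50.9% of antisense and 44.6% of all RPB1 regions, and 26.5% and 23.9% of pSer2 regions. The sense start was taken as the outermost annotated start of the sense gene. In WT cells 212 of 1092 RPB1 regions whose sense gene was found (19.4%, 17.2 to 21.9%) lay within 1 kb of both starts, 340 (31.1%) within 1 kb of the antisense start only and 540 (49.5%) near neither. The regions at both starts were the strongest and widest, with a median fold enrichment of 28.7 and a median width of 1599 bp, against 9.10-fold at the antisense start alone and 4.89-fold and 323 bp near neither start. KO cells had the same order, with 205 of 974 regions at both starts (21.0%) at a median of 21.0-fold, 304 at the antisense start alone and 464 near neither.

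Of the pSer2 regions in WT cells, 121 of 1935 (6.25%, 5.26 to 7.42%) lay within 1 kb of both starts, 386 (19.9%) near the antisense start only and 1427 (73.7%) near neither. In KO cells 92 of 1396 (6.59%), 301 and 1001 regions fell in these classes. The median pSer2 fold enrichment in the 3 classes was 4.19, 4.06 and 3.64 in WT cells, at median percentiles of 67.6, 64.9 and 47.8 among all pSer2 regions, so regions near neither start were the weaker ones. A region near the sense start alone was nearly absent, with 0 to 2 regions per library, because regions had been assigned to the nearest gene start. RPB1 regions near neither start were in the antisense gene alone (209), the sense gene alone (122), both (74) or neither gene (135) in WT cells.

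**Figure D1:**
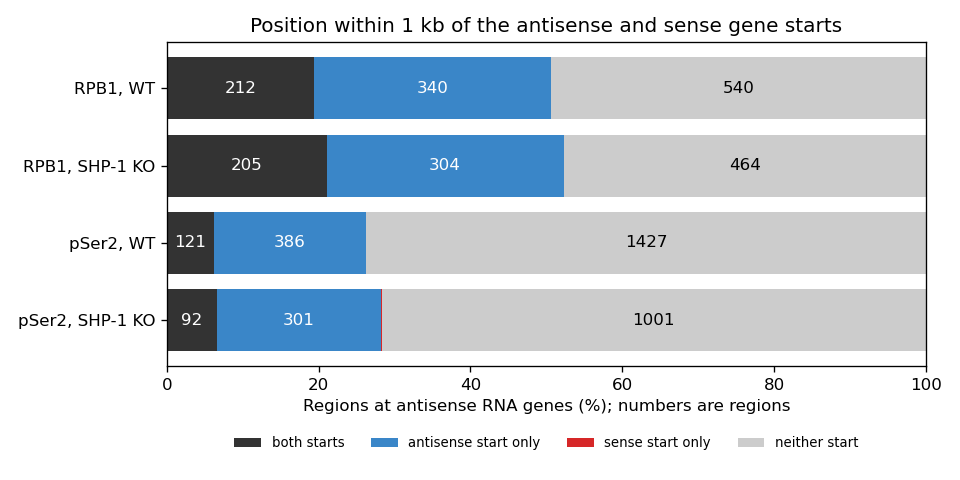
Share (%, horizontal axis) of regions at antisense RNA genes by position, for each of the 4 libraries, with 1 bar per library and the number of regions in each segment. The black segment, regions within 1 kb of both the antisense and the sense start, holds 212 and 205 RPB1 regions but 121 and 92 pSer2 regions, and most pSer2 regions are near neither start (grey).

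How often the antibodies met differed with the arrangement of the pair, and differently for each antibody. In WT cells 43.5% (39.1 to 47.9%) of pSer2 regions at the 214 pairs with overlapping 5′ ends were overlapped by an RPB1 region, against 18.6% (15.7 to 21.9%) at antisense genes inside their sense gene and 22.1% at those overlapping the 3′ end. It was 41.9% where the sense gene lay inside the antisense gene and 41.6% at divergent pairs. In KO cells the first 3 shares were 50.3%, 19.3% and 29.7%. RPB1 regions had another order: 68.4% (61.8 to 74.3%) were met by pSer2 at overlapping 3′ ends in WT cells, against 61.5% (56.6 to 66.2%) at overlapping 5′ ends and 53.8% inside the sense gene, and in KO cells these were 72.2%, 55.1% and 53.1%. Antisense genes inside their sense gene had a mean of 5.68 pSer2 regions per gene in WT cells, against 3.91 at overlapping 5′ ends. A few genes weighed on this mean and on the 18.6% share. HMGA2-AS1 alone held 73 of the 608 regions, and NFIA-AS1 and ZNRF3-AS1 also had many. The values were not computed without these genes.

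The strongest RPB1 region of all antisense genes was that of INTS6-AS1, which overlaps the start of INTS6, a subunit of the Integrator complex. It lay at chr13:51451359-51454299 in the promoter class, contained both starts, 1900 bp apart, and reached 128-fold in WT and 61.9-fold in KO cells. Its pSer2 region was 21.1-fold in WT and 10.5-fold in KO cells. INTS6-AS1 was thus about 2 times as enriched in WT as in KO cells with both antibodies, over regions of similar width (2941 and 3290 bp for RPB1, 921 and 876 bp for pSer2).

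CEBPB-AS1, head to head with the gene of the liver-enriched transcription factor C/EBPβ, had RPB1 regions of 84.0-fold in WT and 79.0-fold in KO cells, and its pSer2 regions were 15.1 and 19.1-fold. ID2-AS1, beside the gene of an inhibitor of helix-loop-helix factors, had 83.1 and 60.7-fold RPB1 regions and no pSer2 region in either genotype. UGDH-AS1, whose sense gene encodes the enzyme that makes UDP-glucuronate, had RPB1 regions of 81.2 and 75.3-fold, while its pSer2 regions were 4.31 and 3.41-fold. Antisense genes with high RPB1 thus had strong, weak or no pSer2 regions. Among all regions of their library, the RPB1 region of UGDH-AS1 in WT cells stood at percentile 99.6 and its pSer2 region at percentile 70.0. Those of CEBPB-AS1 stood at percentiles 99.7 and 99.4, but at different positions. Its RPB1 summit in WT cells lay 48 bp from the start of CEBPB, and its pSer2 summit 4160 bp from it.

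FOCAD-AS1 had RPB1 regions of 80.9-fold in WT and 62.2-fold in KO cells over the promoter printed above and the canonical FOCAD start, and its strongest pSer2 regions (7.68 and 5.40-fold) lay over 10 kb upstream of its start. SLC16A1-AS1, beside the gene of the lactate transporter MCT1, had RPB1 regions of 77.2 and 63.3-fold and pSer2 regions of 7.90 and 5.16-fold. The RPB1 regions of THUMPD3-AS1 (68.9 and 65.5-fold) and PCBP1-AS1 (64.0 and 63.3-fold) differed least between the genotypes among these. All 8 of these genes had their strongest RPB1 region in the promoter class, at a higher value in WT than in KO cells. The strongest RPB1 regions of all genes, given with the ratios, commonly had the same direction. The genes with the strongest WT regions were among the 8, and a choice by WT value by itself favours this direction. It is therefore not read as a result.

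**Figure D2:**
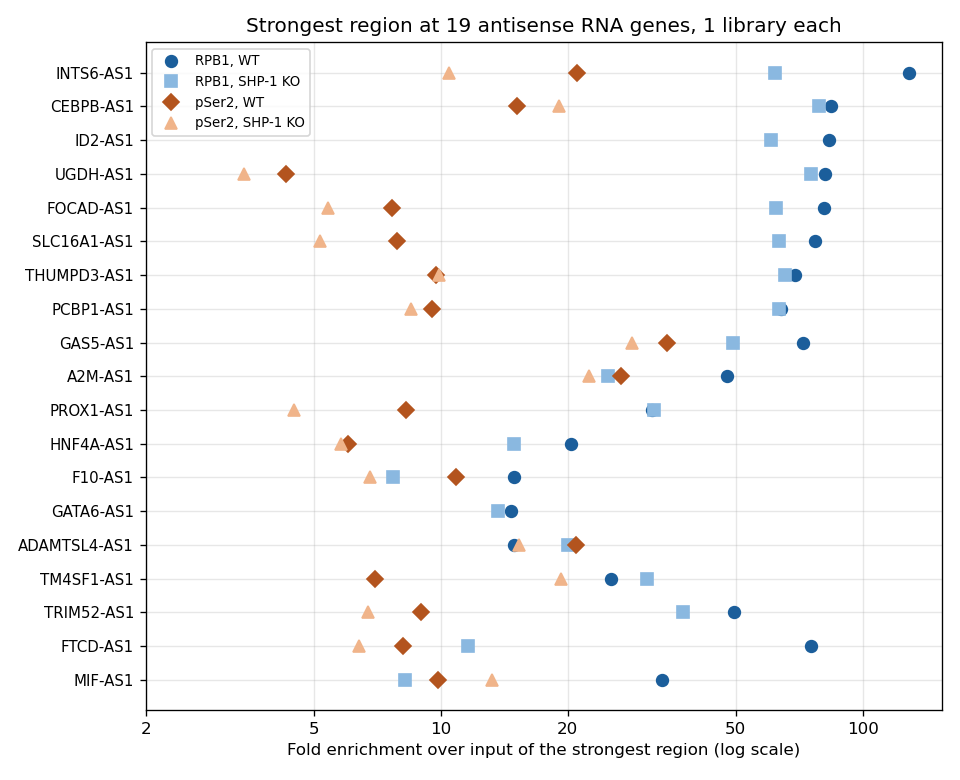
Fold enrichment over input (horizontal log axis) of the strongest region at 19 antisense RNA genes (rows), with 1 point per library: RPB1 in WT (circle) and KO cells (square) and pSer2 in WT (diamond) and KO cells (triangle). RPB1 in WT cells lies furthest right at INTS6-AS1 (128-fold), pSer2 in WT cells is highest at GAS5-AS1 (34.4-fold), and a missing point is a library with no region.

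Strong pSer2 regions belonged mostly to other antisense genes. GAS5-AS1, inside the snoRNA host gene GAS5, had pSer2 regions of 34.4 and 28.3-fold and RPB1 regions of 72.2 and 49.3-fold. A2M-AS1, at the 3′ end of the gene of the plasma protease inhibitor α2-macroglobulin, had pSer2 regions of 26.8 and 22.5-fold and RPB1 regions of 47.6 and 24.9-fold. The pSer2 region of A2M-AS1 in WT cells spanned 20211 bp across that gene's end, and that of GAS5-AS1 spanned 8624 bp, so these wide regions also covered sequence of the sense gene.

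ADAMTSL4-AS1, at the 3′ end of a gene of a secreted matrix protein, had pSer2 regions of 21.0 and 15.3-fold and RPB1 regions of 14.9 and 20.1-fold. The order of genotypes was thus opposite for the 2 antibodies at ADAMTSL4-AS1. TM4SF1-AS1, divergent from the gene of a tetraspanin-like membrane protein with 86 bp between the starts, had pSer2 regions of 6.98-fold in WT and 19.3-fold in KO cells, with RPB1 regions of 25.3 and 30.8-fold. That pSer2 region was 10915 bp wide in KO cells, its summit lay 9305 bp from the TM4SF1 start, and it overlapped a WT region of 12.6-fold and 7775 bp assigned to TM4SF1, so the 2 pSer2 values of TM4SF1-AS1 came from different positions.

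Genes with an RPB1 region and genes with a pSer2 region were partly different. Of the 491 antisense genes with an RPB1 region in WT cells, 319 (65.0%, 60.6 to 69.1%) also had a pSer2 region, against 77.0% of all genes. In KO cells 278 of 462 (60.2%, 55.6 to 64.5%) did, against 73.4%. Antisense genes with regions also had fewer of them than all genes, with means of 2.24 against 3.25 for RPB1 in WT cells. For pSer2 in WT cells the means were 4.88 against 8.06, and the part of this in the shares was not tested. In WT cells 172 antisense genes had RPB1 regions alone and 79 pSer2 regions alone, and the genes with both had a median strongest RPB1 region of 26.8-fold, against 20.3-fold in those without pSer2. Among the 319 with both, the strongest RPB1 region lay within 1 kb of the antisense start in 81.2% and the strongest pSer2 region in 58.9%. PSMA3-AS1, beside a proteasome subunit gene, had a weak RPB1 region (3.92-fold in WT cells) and a strong, 10002 bp wide pSer2 region (10.1-fold).

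Region by region, 662 of 1099 RPB1 regions at antisense genes in WT cells shared 1 bp or more with a pSer2 region (60.2%, 57.3 to 63.1%), against 58.9% of all RPB1 regions. In KO cells 575 of 982 were (58.6%, 55.4 to 61.6%), against 58.2%. Both shares were near those of all regions, but the annotation classes differed. In WT cells the share was 62.6% (58.5 to 66.5%) in the promoter class, against 55.6% of all promoter regions, and 57.8% (53.6 to 61.9%) outside it, against 61.5%. In KO cells it was 57.8% against 52.0% in the promoter class and 59.4% against 63.8% outside it. Conversely, 575 of 1944 pSer2 regions in WT cells were overlapped by an RPB1 region (29.6%, 27.6 to 31.6%), against 24.2% of all, and 472 of 1401 in KO cells (33.7%, 31.3 to 36.2%), against 26.1%. The pSer2 regions of antisense genes were thus more often met by RPB1 than pSer2 regions at large. Within the promoter class alone the shares were 66.9% against 53.8% in WT and 65.7% against 55.7% in KO cells, and outside it they were 16.1% (14.3 to 18.1%) against 14.9% in WT and 21.0% (18.6 to 23.6%) against 16.2% in KO cells. Antisense promoter pSer2 regions were also wider, with medians of 476 against 386 bp in WT and 444 against 387 bp in KO cells. The part of width in these shares was not tested.

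The antisense genes had company from their sense genes. Of the antisense genes with an RPB1 region and a known sense gene, 64.1% in WT and 63.8% in KO cells also had an RPB1 region assigned to the sense gene, and for pSer2 the shares were 77.2 and 71.9%. Where both had regions, the antisense gene held the stronger RPB1 region in 62.5% of pairs in WT cells (57.0 to 67.7%) and the stronger pSer2 region in 40.7% (35.3 to 46.3%). Since a shared promoter region goes to only 1 of the 2 genes, this describes the assignment as much as the polymerase.

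RPB1 regions at antisense genes were often found in both genotypes. In WT cells 723 of 1099 were overlapped by an RPB1 region of KO cells (65.8%, 62.9 to 68.5%), against 61.9% of all WT RPB1 regions. Of the KO regions 759 of 982 were overlapped by a WT region (77.3%, 74.6 to 79.8%), against 74.9%. In the promoter class 81.8% of WT regions (78.3 to 84.7%) were shared, against 76.5% of all promoter regions, and outside it 49.3% were, against 50.1%. The antisense share was thus above that of all regions within the promoter class and not outside it. Antisense regions of WT cells were also more often in the promoter class, at 50.9% against 44.6% of all RPB1 regions. In that class they had a higher median fold enrichment than all promoter regions. The parts of class and strength in the shared regions were not tested.

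For pSer2, 1013 of 1944 WT regions were overlapped in KO cells (52.1%, 49.9 to 54.3%), against 52.2% of all, and 1052 of 1401 KO regions were overlapped in WT cells (75.1%, 72.8 to 77.3%), against 69.9%. In the promoter class the WT share was 67.8% (63.7 to 71.7%), against 62.1%, and outside it 46.4% (43.9 to 49.0%), against 49.1%. Shared regions at antisense genes more often changed the gene they were assigned to: 31 of 723 RPB1 regions (4.29%, 3.04 to 6.02%) met a region assigned to another gene in the other genotype, against 1.96% of all. Within 1 kb of both starts this share was 6.93% for RPB1 and 15.2% for pSer2.

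**Figure D3:**
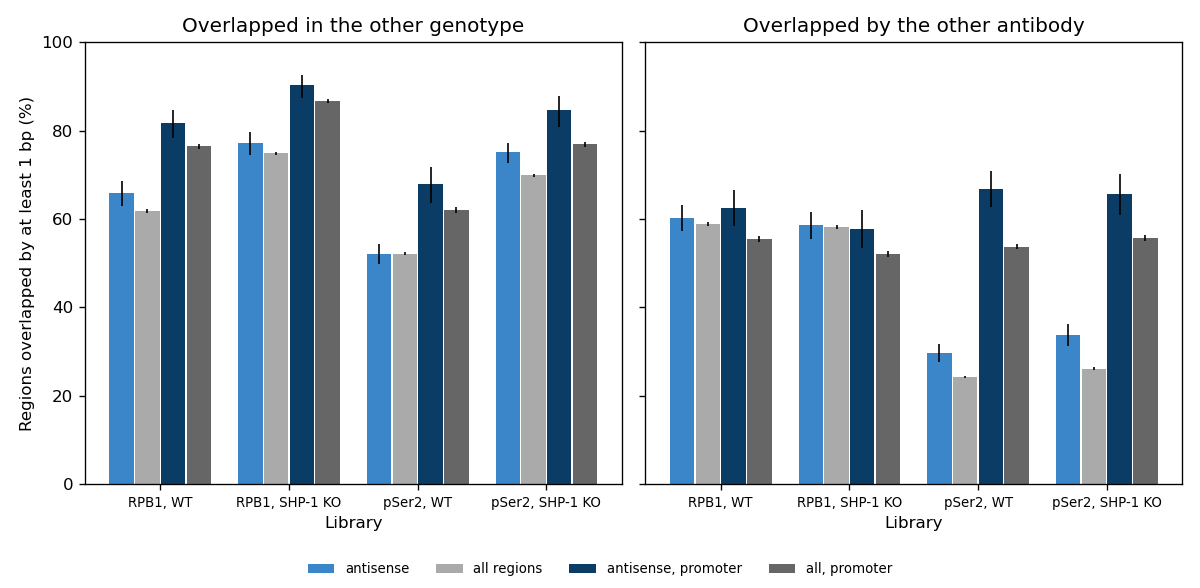
Share of regions (%, vertical axis from 0) that share 1 bp or more with a region of the same antibody in the other genotype (left) or of the other antibody in the same genotype (right), per library, with 95% Wilson intervals as bars. Antisense promoter regions (dark blue) stand above all promoter regions (dark grey) in each library of both panels, for example at 66.9% against 53.8% for WT pSer2 regions met by RPB1. They were also wider than all promoter regions in each library, and the part of width was not tested.

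The fold enrichment of shared regions differed between genotypes about as that of all regions did. Each WT region was paired with the KO region of largest overlap. The median log2 KO/WT ratio of the 723 RPB1 pairs was -0.27 (-0.32 to -0.22), against -0.22 over all 28495 pairs, and that of the 1013 pSer2 pairs was 0.01 (-0.03 to 0.05), against 0.01 over all 53584. After the median of all pairs was subtracted, 111 RPB1 pairs (15.4%, 12.9 to 18.2%) were over 1.5-fold higher in KO cells, against 16.6% of all pairs, and 94 (interval 10.7 to 15.6%) were over 1.5-fold lower, against 13.4%. For pSer2, 123 pairs (12.1%, 10.3 to 14.3%) were higher, against 11.7%, and 128 (12.6%, 10.7 to 14.8%) were lower, against 10.8%.

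These shares were near the background in both directions. In promoter pairs the median was -0.39 for RPB1, against -0.37 of all promoter pairs. When only the strongest region of each gene was used, the medians were -0.44 for RPB1 and -0.26 for pSer2, beside -0.47 and -0.25 at all genes. These regions were chosen by their WT fold enrichment, which by itself favours a ratio below that of all pairs, so only the likeness to all genes is read from them.

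**Figure D4:**
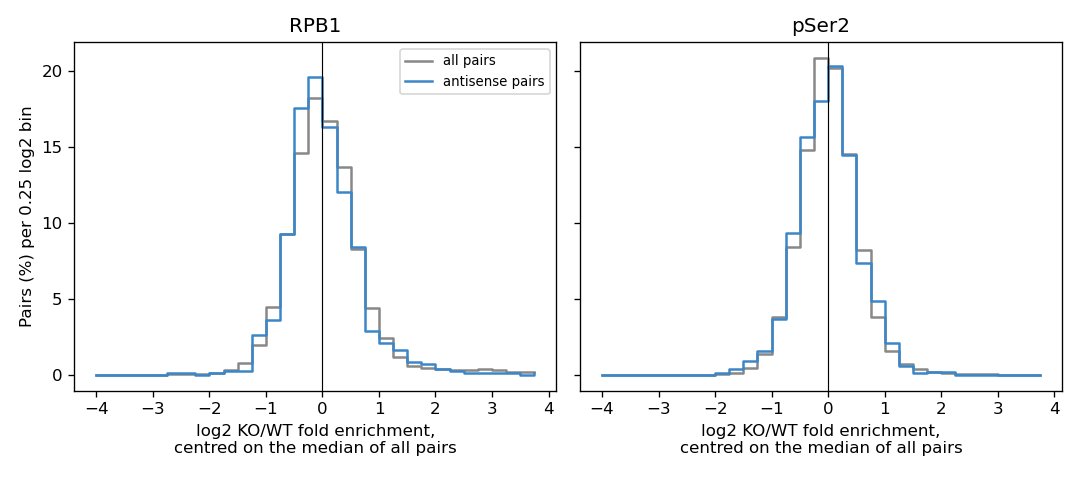
Distribution of the log2 KO/WT fold enrichment of overlapping regions (horizontal axis, centred on the median of all pairs) as the share of pairs per bin of 0.25 (vertical axis, %), for RPB1 (left) and pSer2 (right), antisense pairs in blue and all pairs in grey. The curves nearly coincide, with 15.4% of antisense and 16.6% of all RPB1 pairs over 1.5-fold higher.

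Single antisense genes departed from this median. The lowest ratio among pairs that were each other's largest overlap was at MIF-AS1, near the gene of the cytokine macrophage migration inhibitory factor. An intergenic region assigned to it, at -14041 bp from its start (negative is upstream), was 33.5-fold and 1615 bp in WT cells, and 2 regions of 4.75 and 6.14-fold lay within it in KO cells (log2 ratio -2.59 after centring on all pairs). The pSer2 region there was 9.86-fold in WT and 5.56-fold in KO cells. Near the start of MIF-AS1 itself the RPB1 regions reached 4.91-fold in WT and 8.21-fold in KO cells, but a WT region of 63.9-fold assigned to MIF overlapped the latter. A pSer2 region of about 10 kb that held both starts was 7.58-fold in WT and 13.2-fold in KO cells.

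At FTCD-AS1, inside the gene of a liver enzyme of histidine and folate metabolism, a WT region of 75.2-fold and 7303 bp was paired with a KO region of 11.6-fold and 2863 bp. The WT summit lay 49 bp from the FTCD start, and the strongest KO region in that interval was 32.6-fold and assigned to FTCD, so the difference at the FTCD start was smaller than that of the pair. FAM83H-AS1 was a like case: its WT region of 36.6-fold was paired with 8.70-fold, while another KO region in it was 32.2-fold.

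EP300-AS1, at the 3′ end of the gene of the acetyltransferase p300, had a single promoter region, 25.9-fold and 1202 bp in WT cells and 6.96-fold and 411 bp in KO cells, with no other KO region in it. SEMA6A-AS2, beside a semaphorin gene, had 24.5-fold in WT cells, over which the KO regions were 6.86 and 8.21-fold and assigned to SEMA6A. These 2 promoters were lower in KO cells whichever overlapping region was taken.

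In the other direction, TRIM52-AS1 had the highest ratio among mutual pairs. An exon region assigned to it, 17575 bp beyond its start, was 4.51-fold and 424 bp in WT cells and 37.5-fold and 1305 bp in KO cells (log2 ratio 3.28 after centring on all pairs). A pSer2 region of 4.92-fold overlapped it in KO cells and none did in WT cells. The promoter region of TRIM52-AS1, divergent from the TRIM52 start by 19 bp, had the opposite order, 49.5-fold in WT and 27.5-fold in KO cells. CEBPB-AS1, TRAM2-AS1, PAQR9-AS1 and PRR7-AS1 also had a pair among the 5 furthest above the median, each from a short, weak WT region overlapped by a much larger KO region, and none of these was a mutual largest overlap. High mutual pairs also stood at TSPEAR-AS2 (5.09 and 14.4-fold) and RASSF8-AS1 (6.51 and 15.9-fold).

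Antisense genes of liver factors and plasma proteins are described by 6 genes, all with an RPB1 region in WT cells and 5 in KO cells, and 5 and 4 with a pSer2 region. Of the 4 that had a pair for their strongest pSer2 region, 0 were over 1.5-fold higher and 2 over 1.5-fold lower after centring (median -0.37). Over the strongest pSer2 pairs of all genes 5.1% were higher and 21.7% lower. The 2 were F10-AS1 and PROX1-AS1. Of 5 strongest RPB1 pairs, 0 were higher and 1, that of F10-AS1, was lower, beside 5.18% higher and 21.3% lower over the strongest RPB1 pairs of all genes. F10-AS1, inside the gene of coagulation factor X, had pSer2 regions of 10.9 and 6.79-fold and RPB1 regions of 14.9 and 7.72-fold.

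PROX1-AS1, at the gene of a homeobox factor of hepatocytes, had strongest pSer2 regions of 8.29 and 4.50-fold but RPB1 regions of 31.6 and 32.1-fold. Its pSer2 values came from different positions. KO regions over the WT region of 8.29-fold reached 3.72-fold, and the KO region of 4.50-fold overlapped a WT region of 4.40-fold. HNF4A-AS1, inside the gene of the nuclear receptor HNF4α, had strongest pSer2 regions of 6.02 and 5.81-fold, but 18 of them in WT and 10 in KO cells. GATA6-AS1 had RPB1 regions of 14.6 and 13.7-fold and no pSer2 region. A1BG-AS1, beside a plasma protein gene, had regions in WT cells alone, of 5.51-fold for RPB1 and 4.06-fold for pSer2.

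In the other lists the strongest pairs past 1.5-fold are read against the same shares. Of 16 broadly expressed antisense genes 14 had an RPB1 region in each genotype, and of their 13 strongest RPB1 pairs 0 were higher and 2 lower, and of 9 pSer2 pairs 0 and 3. Both genes of the HOX list, HOXA-AS2 and HOXA-AS3, had regions in all libraries, and HOXA-AS3 had RPB1 regions of 46.6 and 21.6-fold. Of their 2 strongest pairs for each antibody, 1 RPB1 pair was lower and 1 pSer2 pair higher. Of 22 antisense genes studied in tumours 15 had a region, and of their 14 strongest RPB1 pairs 1 was higher and 2 lower, and of 9 pSer2 pairs 0 and 2. Of all 47 RPB1 pairs of that list 15 were higher and 3 lower, beside 16.6 and 13.4% of all RPB1 pairs, and 17 of the 47 pairs, 6 of them higher, belonged to DLGAP1-AS2 alone.

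Some antisense genes had regions in 1 genotype only. For RPB1, 48 of 491 genes with a region in WT cells had none in KO cells (9.78%, 7.45 to 12.7%), against 9.09% of all genes, and 19 of 462 had a region in KO cells alone (4.11%), against 4.32%. Both shares were near the background. For pSer2, 92 of 398 genes had a region in WT cells alone (23.1%, 19.2 to 27.5%), against 14.7%, and 32 of 338 in KO cells alone (9.47%, 6.79 to 13.1%), against 4.92%. The pSer2 shares were above the background. Among genes with 1 region they were 46.3% (38.2 to 54.7%) against 43.3% in WT and 20.2% against 17.3% in KO cells.

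The strongest of these cases were changes of assignment. BHLHE40-AS1 (42.7-fold), PARD3-AS1 (35.2), VPS13A-AS1 (34.9), RBM15-AS1 (28.1) and RAP2C-AS1 (27.5) were the 5 strongest with an RPB1 region in WT cells alone. At each of them a KO region overlapped and was assigned to the sense gene, of 26.3-fold at BHLHE40, 28.4 at PARD3, 23.3 at VPS13A, 31.7 at RBM15 and 18.4 at RAP2C. Likewise the KO regions of GLYCTK-AS1 (26.6-fold), SLC25A21-AS1 (16.5) and DEPDC1-AS1 (11.3) overlapped WT regions assigned to the sense gene, of 47.9, 18.5 and 13.8-fold, and that of POC1B-AS1 (17.9-fold) overlapped a WT region assigned to GALNT4. In all, 10 of the 48 and 8 of the 19 genes had such an overlap.

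Without any overlapping region in KO cells, the strongest RPB1 regions of WT cells were those of HLA-F-AS1 (19.6-fold), in the class I histocompatibility locus, LY86-AS1 (12.8-fold, at -64418 bp from its start) and ST3GAL5-AS1 (7.94-fold). In the opposite direction DPP10-AS1 had 2 RPB1 regions in KO cells, the stronger of 11.5-fold, and none in WT cells. For pSer2 the strongest regions of WT cells without a counterpart were PRKG1-AS1 at 8.14-fold, ST20-AS1 at 6.86-fold, where another region did have one, and TNFRSF14-AS1 at 6.35-fold. PRKG1-AS1 and TNFRSF14-AS1 kept RPB1 regions, of 62.9 and 25.1-fold and of 50.5 and 21.6-fold in WT and KO cells. ADNP-AS1 had a pSer2 region of 13.01-fold in WT cells alone, which 4 KO regions overlapped, the strongest of 11.05-fold and assigned to ADNP. With pSer2 regions in KO cells alone and none over them in WT cells, CACTIN-AS1 reached 5.34-fold, ATP2B1-AS1 5.32-fold and B4GALT1-AS1 5.06-fold. Those of ARRDC1-AS1 (9.81-fold) and COA6-AS1 (6.62-fold) overlapped WT regions assigned to the sense gene, of 11.1 and 3.08-fold.

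Fewer regions were listed at antisense genes in KO cells than in WT cells. RPB1 regions at antisense genes numbered 0.894 times those of WT cells, against 0.904 for all regions, and pSer2 regions 0.721 times, against 0.789. Of 430 antisense genes with a pSer2 region, 242 had fewer in KO cells (56.3%, against 59.6% of all genes) and 88 had more. The 5 genes with most pSer2 regions held 241 of the 1944 in WT cells, and the ratio without them was 0.734.

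HMGA2-AS1, inside the gene of a chromatin architectural protein, had 73 pSer2 regions in WT and 62 in KO cells, none above 5.80-fold. NFIA-AS1, inside the gene of a nuclear factor I protein, had 50 and 8, and its 3 weak RPB1 regions of WT cells were absent in KO cells. PPFIA2-AS1 had 41 and 28 and no RPB1 region, and ZNRF3-AS1, inside the gene of a ubiquitin ligase acting on Wnt receptors, had 38 in both. SLC7A11-AS1, at the gene of the cystine transporter, had 39 and 15, but these covered 27428 bp in WT and 40383 bp in KO cells, so fewer regions there were longer ones. NAV2-AS2 went the other way in number, with 28 and 37.

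NFIA-AS1 and TNFRSF14-AS1 lie on chromosome arm 1p, where all regions were fewer in KO cells. On 1p the antisense pSer2 regions numbered 212 in WT and 105 in KO cells, a ratio of 0.495, against 0.633 for all pSer2 regions on 1p. The fall in number at NFIA-AS1, given above, made up a large part of that from 212 to 105. The values on 1p were not computed without this gene. Off 1p the ratio was 0.748, against 0.801. On 1p 33.5% (27.5 to 40.1%) of antisense pSer2 regions of WT cells were shared, against 40.8% of all. The ratio of antisense RPB1 regions was 0.787 on 1p and 0.903 off it, near the 0.781 and 0.913 of all RPB1 regions. The part of this arm in the values of NFIA-AS1 and TNFRSF14-AS1 was not tested.

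For RPB1, TPT1-AS1, divergent from the gene of the translationally controlled tumour protein at the stretch printed above, had 20 regions in WT and 13 in KO cells, with a strongest region of 61.0 and 55.4-fold. DLGAP1-AS2 had 19 and 23, TMEM147-AS1 12 and 15, and OIP5-AS1, a cytoplasmic long noncoding RNA gene, 8 and 15. ELOA-AS1, on 1p, had 12 and 7, and PAQR9-AS1 had 11 and 2. The genes with the most RPB1 regions thus differed in direction between the genotypes.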

How the data were processed

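RPB1 and pSer2 were measured by ChIP-seq in 1 library per antibody and genotype, and the 2 inputs were not analysed here as samples. The authors trimmed reads with Trimmomatic, aligned them with BWA to GRCh38/hg38 using the MUGQIC pipeline, and had MACS2 call narrow peaks per library, with input of the same cells as control and without pooling; versions are not stated. The deposited lists give, per region, the fold enrichment over input (a ratio), the −log10 p-value and q-value and the MACS2 score, with widths, distances and the nearest gene added by the authors. A deposited table of p-values from the authors' own comparison of KO with WT was not used.

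Regions were compared by overlap of at least 1 bp, and each WT region was paired with the KO region of largest overlap. Fold enrichments of the 2 antibodies share no scale and were set side by side by percentile within a library. Shares have 95% Wilson intervals and medians have order-statistic intervals. Sense genes and spans came from GENCODE release 44, which held 954 of the 961 transcripts assigned to antisense regions, 747 of them (78.3%) with the same ends. Computations used Python 3.11.15, pandas 2.3.3, NumPy 2.4.6, SciPy 1.17.1 and matplotlib 3.10.9, and the overlap and ratio steps were tested on simulated data.

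Members and gene lists were chosen with earlier results of these data known. Genes were named when among the 5 strongest or the 5 with most regions in a library, the 5 strongest found in 1 genotype, or the 5 RPB1 pairs furthest above or below the median ratio, or when on a list. HLA-F-AS1, LY86-AS1, ST3GAL5-AS1, the genes of mutual pairs and those whose sequences are shown were chosen after their values were seen. Alternatives were a stricter q-value, 1 region per gene, promoter regions only, a reciprocal overlap, other distances, other sense starts, symbols without a number and arm 1p left out. An item that the naming rule covers is not reported here.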

Additional observations from a re-analysis of the deposited data

How the results depend on the processing

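Of 109 alternative values of 17 results, 53 stayed within the counting interval of the reported value and 56 moved beyond it. The median pSer2 ratio, 0.01 (-0.03 to 0.05), was below 0 under 4 of them, at -0.26, -0.022, -0.052 and -0.044. The medians of all pSer2 pairs under the same settings were below 0 too, at -0.25, -0.023, -0.005 and -0.037. Each count of overlaps depended on the overlap asked for, the strength of the regions and the number kept per gene, and depth is unknown. No paired analysis was possible because each group has 1 library. Values are in the order WT RPB1, KO RPB1, WT pSer2 and KO pSer2 unless stated.

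With 1 region per gene, the share of regions at antisense genes was 3.47, 3.43, 3.12 and 2.96%, the share of antisense regions shared between genotypes 87.0, 94.4, 64.1 and 83.1%, and the share within 1 kb of the sense start 39.4, 40.4, 17.2 and 18.2%. The median log2 KO/WT ratio was then -0.44 for RPB1 and -0.26 for pSer2, and 63.1% of WT RPB1 regions met pSer2. In the promoter class, the share at antisense genes was 2.72, 2.62, 2.10 and 1.95%, the share in both genotypes 81.8, 90.3, 67.8 and 84.6%, and the median ratio -0.39 for RPB1 and -0.052 for pSer2.

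With −log10 q-values of 5 or more, the share at antisense genes was 2.53% for KO RPB1, 2.00% for WT pSer2 and 1.82% for KO pSer2, the share in both genotypes 75.7% for WT RPB1, 85.0% for KO RPB1 and 71.5% for KO pSer2, and the RPB1 ratio -0.35. RPB1 then met pSer2 in 52.7% in WT and 52.5% in KO cells, and 28.2, 28.5, 9.30 and 10.5% lay within 1 kb of the sense start. With a reciprocal overlap of at least 50%, 47.1, 52.3, 25.7 and 35.1% were shared between genotypes, the RPB1 ratio was -0.33, and RPB1 met pSer2 in 12.1% in WT and 12.9% in KO cells.

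Within 3 kb of the sense start lay 29.6, 29.5, 11.008 and 10.96%, and within 500 bp 4.91% of WT and 5.23% of KO pSer2 regions. Without arm 1p, 54.4% of WT pSer2 regions were shared. Of the alternatives chosen after seeing the data, the canonical sense start gave 23.3 and 24.9% of RPB1 regions, mutual largest overlaps a pSer2 ratio of -0.044, and genes with 1 WT region a share of 14.3% with RPB1 in WT cells alone.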
